A study of Rattus norvegicus with 8 samples.

Results

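Olig1, Olig2, Sox10, Nkx2-2, Sox11, Sox4, Sox6 and Tcf7l2 encode transcription factors that set up oligodendrocyte precursors or time their maturation. They were followed here in A2B5/OTMP+ cells sorted by flow cytometry from the brain of rats at postnatal day 7, which the labels call perineuronal oligodendrocytes. These were 8 of the 13810 genes named by a probe set here. Every probe set annotated to exactly 1 of these 8 genes was taken, which gave 18 of the 31142 tested probe sets, 9 of 15866 on the array type named chip A and 9 of 15276 on chip B. All 8 genes had at least 1 probe set: 7 for Sox4, 3 for Tcf7l2, a pair each for Olig2 and Sox6, and 1 each for Olig1, Sox10, Nkx2-2 and Sox11. RNA of 4 biological replicates was read on both array types, so the series holds 8 arrays of 1 cell population and no control group. The rat strain, the animals behind a replicate and the sort gates are not given in the sources used here, and p-values therefore measure the spread between these replicates only.

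OLIG1 and OLIG2 are basic helix-loop-helix (bHLH) proteins. OLIG2 commits neural precursors to the lineage and switches on Sox10, whose SOX protein acts with MYRF on myelin genes. NKX2-2 is a homeodomain protein that promotes differentiation. In mice SOX6 holds precursors in the immature state, TCF7L2, an effector of Wnt signalling, acts in cells that are just starting to differentiate, and SOX4 and SOX11, close relatives within the SOX family, are best known from immature neurons and progenitors.

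The deposited value of a probe set is a ratio of its signal to a reference value for that probe set, and the labels do not name that reference. A ratio of 1 means the same signal as the reference. It does not say how bright a gene was or whether it was expressed, and it cannot set the level of Olig2 against that of Sox10. Ratios were put on the log2 scale and tested on both sides of 1 with limma, with Benjamini-Hochberg adjustment over all tested probe sets of an array type at 0.05. In bulk RNA, fewer cells of a type and less RNA per cell cannot be told apart. The median ratio of an array lay between 0.888 and 0.967. Pairs of replicates correlated across probe sets with r from 0.71 to 0.792. These are correlations across probe sets, which are not independent. The number of arrays limits the precision of every value below.

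Of the 18 lineage factor probe sets, 3 passed the test. The only one above the reference was Sox11, and those below it were 1 of the 7 Sox4 probe sets and 1 of the pair for Olig2. The other 15 did not pass, at mean log2 ratios from -0.39 to 0.34. Some of their intervals were wide, as that of Sox10, so not passing does not place them at the reference. On chip A 1 of 9 probe sets was higher, where 9.21% of all tested probe sets were, and 1 of 9 was lower, where 30.1% of all were. On chip B 0 of 9 were higher, against 5.08% of all, and 1 of 9 was lower, against 27.1% of all. The counts of the lineage factors are thus small beside a background in which lower calls are common. The median of their mean log2 ratios was 0.09 on chip A and -0.25 on chip B, against -0.11 for all probe sets of chip A and -0.11 for those of chip B. Centring each array on its median changed the split of calls over all of chip A to 1878 higher and 3689 lower, from the 1462 higher and 4768 lower behind the shares above.

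**Figure D1:**
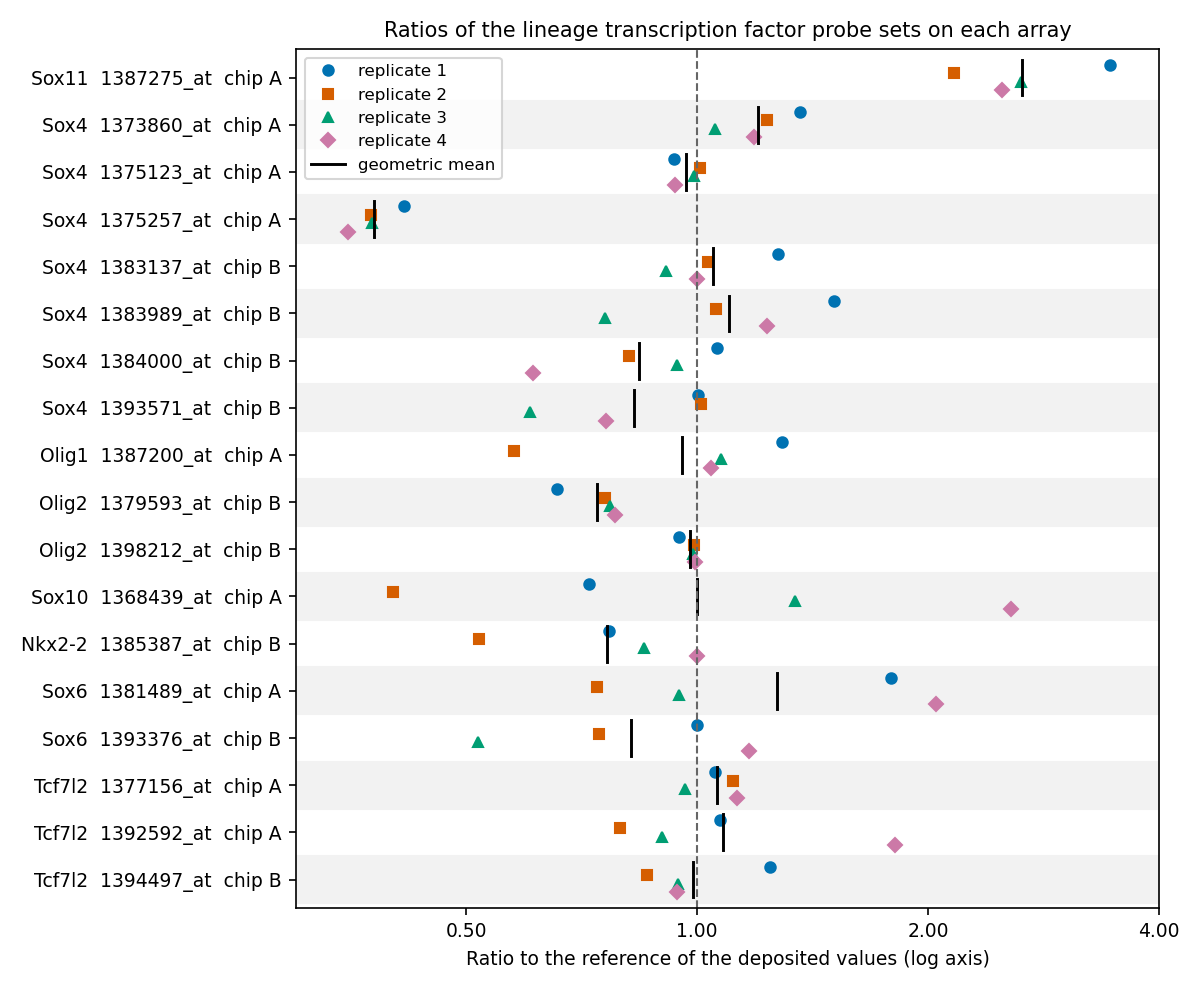
Ratio of each lineage factor probe set (vertical axis) on each array, on a log axis. Points are the 4 replicates of an array type and black bars are geometric means over them. The 4 Sox11 points lie between 2.163 and 3.454, the Sox4 set 1375257_at lies between 0.35 and 0.415, and Sox10 spreads from 0.401 to 2.567 around the dashed line at 1.

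Sox11, an HMG-box factor of newly formed neurons and progenitors, was the member furthest above the reference. Its ratios were 3.454, 2.163, 2.646 and 2.498 in replicates 1 to 4. All 4 arrays lay above 1, with the highest in replicate 1 and the lowest in replicate 2. The mean log2 ratio was 1.41 ± 0.28 (SD, n = 4), a geometric mean ratio of 2.65 with a 95% interval of 2.14 to 3.28 (limma adjusted p = 0.000584). That mean stood at percentile 98.4 of all tested probe sets on chip A. Its SD stood at percentile 66.1. Sox11 was also the only member above the panel level, the 95th percentile on each array of a panel of genes from other organs, by 1.1 on the log2 scale (one-sided limma adjusted p = 0.000592). Above that level lay 3.29% of all chip A probe sets and 4.27% of all chip B ones. This second call was lost without replicate 4 (excess 1.03, limma adjusted p = 0.207). It was also lost with the panel's highest value as the level (0.60, limma adjusted p = 0.103).

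Genes with ratios most like those of Sox11 over the 4 arrays were Kcnj16, a potassium channel gene of glia, with a root mean square log2 difference of 0.10, Gpr161, a receptor gene of the primary cilium, at 0.12, and Grik5, which encodes a kainate receptor subunit, also at 0.12. They were the nearest of 12783 chip A probe sets named by 1 gene. The likeness covers the level of the ratio as well as its spread over only 4 arrays. Kcnj16 had ratios of 3.211, 2.328, 2.457 and 2.398 in replicates 1 to 4.

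The promoter windows of both genes with a call and an entry in the RefSeq table (assembly GRCr8) are shown because they belong to the member above the reference and to a member with a probe set below it. Each window runs from 250 bases before to 50 bases after the gene start. Capitals mark 3 motifs searched on both strands: CANNTG, the E-box bound by bHLH proteins such as OLIG2, ACAAT, a core bound by SOX proteins, and CTTTGA, a core bound by TCF/LEF proteins. The Sox11 window lies at chr6:49738745-49739044 on the minus strand and the Olig2 window at chr11:43961335-43961634 on the plus strand.
Sox11: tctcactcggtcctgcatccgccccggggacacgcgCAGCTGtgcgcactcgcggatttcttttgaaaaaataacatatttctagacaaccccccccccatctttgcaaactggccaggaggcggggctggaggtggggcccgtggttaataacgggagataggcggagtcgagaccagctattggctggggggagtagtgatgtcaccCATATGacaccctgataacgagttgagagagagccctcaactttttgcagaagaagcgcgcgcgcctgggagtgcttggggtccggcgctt
Olig2: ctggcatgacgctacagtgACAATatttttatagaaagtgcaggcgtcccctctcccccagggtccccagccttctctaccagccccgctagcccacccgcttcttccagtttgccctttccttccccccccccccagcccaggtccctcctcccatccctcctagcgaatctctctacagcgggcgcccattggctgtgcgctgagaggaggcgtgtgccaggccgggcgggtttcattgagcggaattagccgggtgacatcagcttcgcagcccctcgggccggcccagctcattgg
The Sox11 window held 2 E-boxes and 0 of the other motifs. That of Olig2 held 0 E-boxes, 1 SOX core and 0 TCF/LEF cores. Of all 33469 promoter windows in the table, 72.1% held an E-box, 33.7% a SOX core and 16.1% a TCF/LEF core, so these matches are common letters. No bases in either window belonged to more than 1 motif. A match describes these letters and shows no binding.

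Sox4, the closest relative of Sox11 among the members, was read by 7 probe sets, of which 1 passed the test. The set 1375257_at had ratios of 0.415, 0.375, 0.377 and 0.35 in replicates 1 to 4. All 4 arrays lay far below 1 and close to each other. The mean log2 ratio was -1.40 ± 0.10 (SD, n = 4), a geometric mean ratio of 0.379 with a 95% interval of 0.335 to 0.428 (limma adjusted p = 0.000124). That mean stood at percentile 1.85 on chip A, while the other 6 Sox4 probe sets had mean log2 ratios from -0.27 to 0.27.

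Among those 6, the highest was 1373860_at, with ratios of 1.364, 1.235, 1.054 and 1.186 in replicates 1 to 4. It lay above 1 on all 4 arrays at a mean log2 ratio of 0.27 ± 0.15 (SD, n = 4) and did not pass (limma adjusted p = 0.0528). It did pass with the arrays centred on their medians (0.39, limma adjusted p = 0.0257), after quantile normalization (0.26, 0.0489) and without replicate 3 (0.33, 0.0431). The set 1375123_at held ratios of 0.934, 1.009, 0.991 and 0.937, with a 95% interval of the mean ratio of 0.866 to 1.08. On chip B the set 1383989_at ranged from 0.758 in replicate 3 to 1.507 in replicate 1, and 1383137_at from 0.912 in replicate 3 to 1.275 in replicate 1. The other pair of chip B sets leaned below 1, at mean log2 ratios of -0.25 ± 0.34 for 1384000_at and -0.27 ± 0.36 for 1393571_at (SD, n = 4), without passing. The probe sets of Sox4 therefore do not give the gene a single direction. Intervals of the mean log2 ratio show the split: -1.58 to -1.22 for 1375257_at, and 0.06 to 0.48 for 1373860_at on the same arrays.

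Lower calls like that of the Sox4 set 1375257_at had smaller SDs than higher calls. The median SD over replicates was 0.11 among lower calls on chip A, against 0.28 among higher calls. On chip B it was 0.07 among lower calls, against 0.32 among higher calls. These SDs are of called probe sets only, and a small SD helps a probe set to pass. Whether such probe sets detected their transcripts was not tested.

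**Figure D2:**
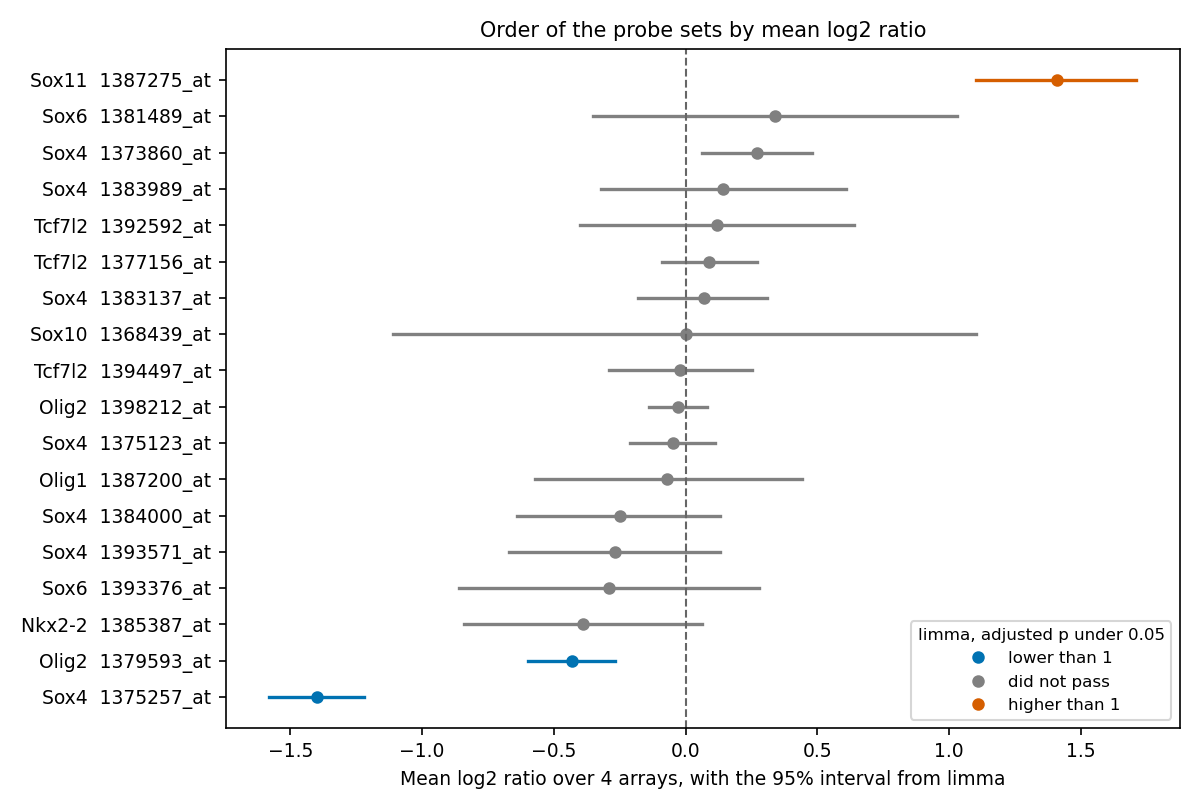
Mean log2 ratio of each lineage factor probe set over 4 arrays (points) with its 95% interval from limma (lines), in order of the mean. The interval of Sox11 (1.1 to 1.71) lies above 0, those of the Sox4 set 1375257_at (-1.58 to -1.22) and the Olig2 set 1379593_at (-0.60 to -0.27) lie below it, and Sox10 has the widest interval (-1.11 to 1.1). The interval of the Sox4 set 1373860_at (0.06 to 0.48) also lies above 0, but this set did not pass. Intervals are not adjusted for the number of probe sets tested.

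Of the bHLH members, Olig1, a gene of precursors and maturing oligodendrocytes, had ratios of 1.292, 0.577, 1.073 and 1.042 in replicates 1 to 4. Replicate 2 was low and the other 3 arrays lay slightly above 1. The mean log2 ratio of -0.07 ± 0.50 (SD, n = 4) did not pass (limma adjusted p = 0.823), and its 95% interval of the mean ratio ran from 0.675 to 1.35.

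Olig2, the gene that commits cells to the lineage, was read by a pair of chip B probe sets. The set 1379593_at had ratios of 0.656, 0.759, 0.77 and 0.782 in replicates 1 to 4, all below 1. Its mean log2 ratio of -0.43 ± 0.12 (SD, n = 4) was below the reference (limma adjusted p = 0.00624), at a geometric mean ratio of 0.74 with a 95% interval of 0.661 to 0.829. The set 1398212_at had ratios of 0.947, 0.991, 0.988 and 0.993. All 4 were just below 1, and the mean log2 ratio of -0.03 ± 0.03 (SD, n = 4) did not pass (limma adjusted p = 0.608). Its SD was among the smallest on chip B, at percentile 4.81, and its interval of 0.908 to 1.06 leaves little room for a departure of this probe set from its reference. That interval does not overlap the one of 1379593_at, so the pair does not place the gene at the reference. Whether either set detected the transcript was not tested. The lower Olig2 set stood at percentile 24.5 of all chip B means.

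Sox10, the SOX factor of the whole lineage, varied more between replicates than any other member. Its ratios were 0.722, 0.401, 1.341 and 2.567 in replicates 1 to 4, a 6.4-fold range. Replicates 1 and 2 lay below the reference and replicates 3 and 4 above it. The mean log2 ratio was 0.00 ± 1.15 (SD, n = 4, limma adjusted p = 0.999). Its SD stood at percentile 99.6 of chip A, where the median SD was 0.21. The 95% interval of the mean ratio, 0.465 to 2.15, allows either direction, so a mean near 1 does not place Sox10 at the reference.

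The chip A genes whose ratios were most like those of Sox10 were Bmp4, which encodes a bone morphogenetic protein, with a root mean square log2 difference of 0.23, Cmip at 0.41 and the AMPA receptor subunit gene Gria3 at 0.42. Bmp4 had ratios of 0.761, 0.521, 1.582 and 2.614 in replicates 1 to 4. Like Sox10, it was lowest in replicate 2 and highest in replicate 4. Bmp4 was picked for its likeness to Sox10 over these same arrays, so the shared order is no separate finding.

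Nkx2-2, the homeodomain member, had ratios of 0.768, 0.519, 0.853 and 1 in replicates 1 to 4. No array lay above 1, and replicate 2 was again the lowest and replicate 4 the highest. The mean log2 ratio of -0.39 ± 0.40 (SD, n = 4) did not pass (limma adjusted p = 0.164), with a 95% interval of the mean ratio of 0.56 to 1.04. The value of exactly 1 in replicate 4 was common on this array type. Of the 9 lineage factor probe sets on chip B, 3 held it on an array, as did 23.0% of all chip B probe sets, and 0 of 9 on chip A, against 0.914% of all.

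Sox6 was read once on each array type. On chip A, 1381489_at had ratios of 1.789, 0.741, 0.948 and 2.049 in replicates 1 to 4. Replicates 1 and 4 were high and replicates 2 and 3 below 1, and the mean log2 ratio of 0.34 ± 0.71 (SD, n = 4) did not pass (limma adjusted p = 0.379). On chip B, 1393376_at had 1, 0.745, 0.518 and 1.17. Replicate 4 was highest on both array types. The chip B mean log2 ratio of -0.29 ± 0.52 (SD, n = 4) did not pass either (limma adjusted p = 0.37). The SDs stood at percentile 97.7 of chip A and 90.3 of chip B.

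None of the 3 Tcf7l2 probe sets passed the test. On chip A, 1377156_at had ratios of 1.056, 1.115, 0.964 and 1.126 in replicates 1 to 4, at a mean log2 ratio of 0.09 ± 0.10. The other chip A set, 1392592_at, had 1.07, 0.794, 0.9 and 1.809, at 0.12 ± 0.52. The chip B set 1394497_at had 1.245, 0.861, 0.945 and 0.941, at -0.02 ± 0.23 (SD, n = 4 for each). Their limma adjusted p values were 0.38, 0.692 and 0.907. The widest of their 95% intervals of the mean ratio was 0.757 to 1.55, for 1392592_at, whose highest array was replicate 4.

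In the order of the means, the 95% interval of the Sox4 set 1375257_at was reached by that of no other member, and the interval of Sox11 only by that of Sox10, at its edge. The lower Olig2 set stood next above that Sox4 set. The intervals of its neighbours Nkx2-2 and the chip B set of Sox6 overlapped its own, as the plot of intervals shows. The means compare each probe set with its own reference only.

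The replicates were not alike for the members. On chip A replicate 2 gave the lowest ratio for 5 of 9 lineage factor probe sets (Sox10, Olig1, Sox11, and 1 set each of Sox6 and Tcf7l2), against 19.8% of all chip A probe sets. Of these, 3 also had their highest ratio in replicate 4 (Sox10, Sox6 and Tcf7l2), against 5.94% of all. On chip B 2 of 9 were lowest in replicate 2, against 29.2% of all, and 1 of 9 was also highest in replicate 4 (Nkx2-2), against 12.1% of all. This was seen in the data first and is a description with no test. Same-numbered arrays of both types carried the same deviations. Over the 100 probe sets that both types hold, deviations from the mean correlated at r from 0.74 to 0.82 for the same number. For other numbers r ran from -0.50 to -0.01. Deviations of a probe set cancel out over the arrays of a type, so the negative sign for other numbers follows in part from the calculation. By the same-number values, chip A and chip B can be read side by side by replicate.

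Other genes of the lineage had unequal values in the same replicates. Pdgfra, the growth factor receptor gene of precursors, had ratios of 1.749, 1.037, 2.764 and 2.6 in replicates 1 to 4, all above 1 (mean log2 ratio 0.93 ± 0.65, SD, n = 4, limma adjusted p = 0.0362). Myrf, the partner of SOX10 at myelin genes, had 0.785, 0.734, 1.839 and 1.864, with replicates 1 and 2 below 1 and replicates 3 and 4 above it, as for Sox10 (0.25 ± 0.74, adjusted p = 0.547). Cspg4, which encodes NG2, had 1.196, 0.829, 2.254 and 1.142 (0.34 ± 0.60, adjusted p = 0.314).

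Marker lists of cell types moved between the same arrays. On chip A the summed ratio of the 7 precursor probe sets was 14.6, 12.2, 17.3 and 14.8 in replicates 1 to 4, lowest in replicate 2 like Sox10. The 15 probe sets of the myelinating list summed to 14.9, 13, 14.2 and 13.9, also lowest in replicate 2, and highest in replicate 1. The median log2 ratio of the myelinating list was 0.06, -0.08, -0.01 and -0.2, lowest in replicate 4. Its low in replicate 2 thus holds for the sum only. The 17 astrocyte probe sets summed to 69.5, 36.6, 61.8 and 32.9, highest in replicate 1 and lowest in replicate 4. The median log2 ratio of that list was 1.27, 0.90, 1.24 and 0.96, lowest in replicate 2, so sum and median name different arrays. Summed ratios of the 18 neuronal probe sets were 42.6, 31.3, 31.1 and 30.6, highest in replicate 1. Sox11 was highest there too, as were the astrocyte and myelinating sums. The 10 microglial probe sets summed to 7.44, 6.8, 9.67 and 6.03. For the 9 endothelial probe sets the sums were 6.28, 15, 12.3 and 10.5, highest in replicate 2, where Sox10 and Olig1 were lowest. The part of other cell types in these members' values was not tested, and with ratios no marker can be called absent.

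**Figure D3:**
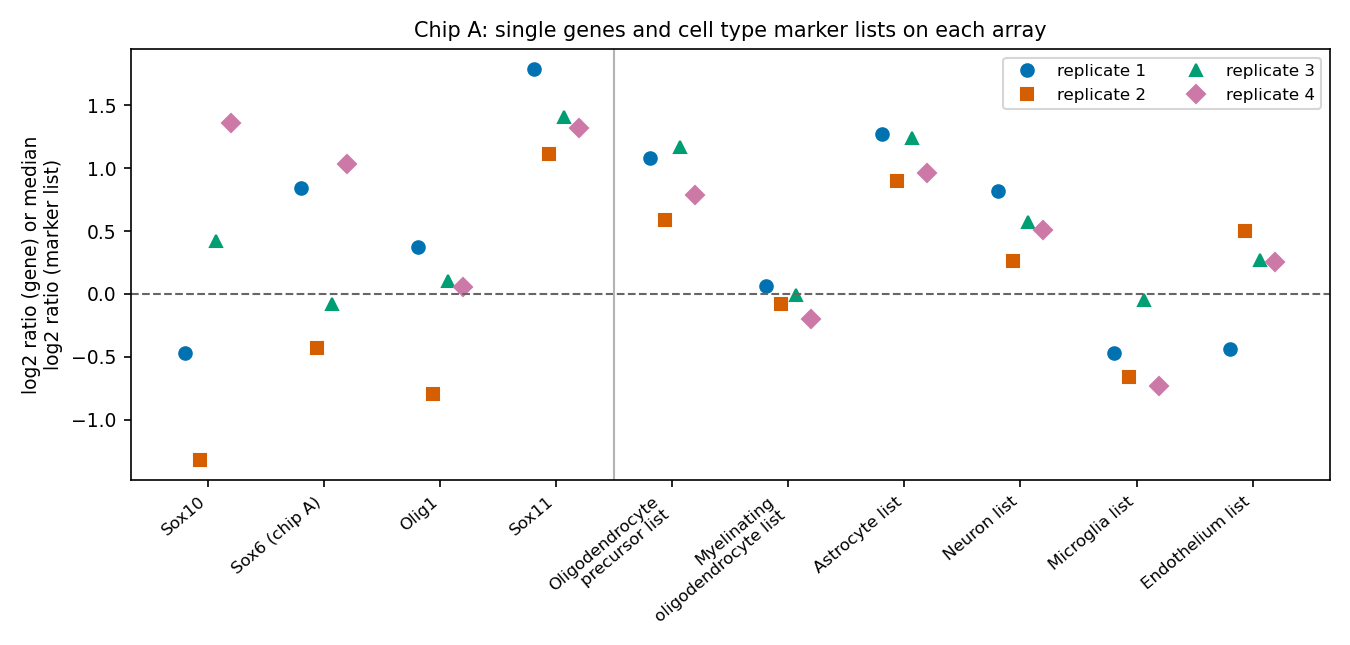
Log2 ratio of Sox10, Sox6, Olig1 and Sox11 on the 4 chip A arrays (left of the line) and the median log2 ratio of each cell type marker list on the same arrays (right). Points are replicates. Sox10, Sox6 and Olig1 are lowest in replicate 2, the endothelial list is highest there at 0.50, and the astrocyte list is above 0 on every array, from 0.90 to 1.27.

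The same lists were also counted by gene. Ratios to an unnamed reference do not show which genes were expressed, so these counts cannot test the label of the cells. Here 7.70% of 13810 named genes had higher calls only, 36.1% lower calls only and 1.52% both. Of 7 measured precursor genes 4 were higher and 0 lower, and the median of the list's mean log2 ratios was 0.86, against -0.13 for all probe sets named by 1 gene. Of 10 myelinating genes 0 were higher and 5 lower (median -0.06). Of 10 astrocyte genes 7 were higher only and 2 had both calls (median 1.14), and of 12 neuronal genes 6 were higher only, 1 lower only and 2 both (median 0.60). Of 8 microglial genes 0 were higher and 3 lower, and 0 of 7 endothelial genes had a call. Higher calls were thus found in some precursor, astrocyte and neuronal genes. The higher precursor genes were Cspg5, Bcan, Ptprz1 and Pdgfra. Whether their signal came from precursors or from other cells, such as astrocytes, was not tested. The rest of that list did not pass: C1ql1 at -0.88 ± 1.07, Lhfpl3 at -0.53 ± 0.68 and Cspg4 at 0.34 ± 0.60. The highest precursor gene was Cspg5, a proteoglycan gene named after its values were seen, at a mean log2 ratio of 1.74 ± 0.16 (SD, n = 4, limma adjusted p = 0.000119).

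Relatives and partners of the lineage factors were read in the same fits. Of 11 other SOX genes 0 had a higher call and 5 had lower calls only (17 probe sets, median -0.03), beside the 7.70% of all named genes with higher and 36.1% with lower calls only. The lowest was Sox9, a SOX factor of glial precursors and astrocytes, whose ratios of 0.301, 0.302, 0.299 and 0.304 gave a mean log2 ratio of -1.73 ± 0.01 (SD, n = 4, limma adjusted p = 5.93e-05). The SD was very small, and whether this set detected the Sox9 transcript was not tested. Sox17, known from endothelium and also studied in oligodendrocytes, had lower probe sets at -1.28 ± 0.04 and -1.18 ± 0.06. The third Sox17 set stood at 0.14 ± 0.50 and did not pass. Sox2, a stem and precursor cell gene, had 4 probe sets, of which 1 was lower at -0.61 ± 0.05 and the others ran from -0.28 to 0.03. As with Sox4, probe sets of 1 gene disagreed. Whether the lower Sox17 and Sox2 sets, with SDs of 0.04 to 0.06, detected their transcripts was not tested either.

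The bHLH partners and their inhibitors had more higher than lower calls. Of 14 measured genes 3 had higher calls only and 1 a lower call only (21 probe sets, median 0.34, against -0.13 for all named probe sets), beside 7.70% and 36.1% of all named genes. Hes5, a Notch target that holds precursors back, had ratios of 4.556, 2.852, 4.552 and 3.044 on one probe set, all above 1 (1.87 ± 0.36, SD, n = 4, limma adjusted p = 0.000435). The other Hes5 set stood at -0.01 ± 0.10. Id4, an inhibitor that binds bHLH partners of the OLIG proteins, stood at 1.45 ± 0.77 on one set (adjusted p = 0.0136) and at 0.10 to 0.40 on the other 3, and Hey2 at 0.55 ± 0.19 (adjusted p = 0.00958). Tcf12, an E-protein that pairs with them, was lower on one set at -0.30 ± 0.11 (adjusted p = 0.025).

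Of 19 other regulators of the lineage 1 had higher calls only, 7 lower calls only and 2 both (40 probe sets, median -0.07). Over all named genes these shares were 7.70%, 36.1% and 1.52%. Nfib, a gliogenic nuclear factor, was higher on one set at 1.30 ± 0.45 (limma adjusted p = 0.00348) and on another at 1.1 ± 0.33 (0.00234), and lower on its last at -1.08 ± 0.07 (0.000171). Klf9, a thyroid hormone target, likewise had a higher set at 0.81 ± 0.44 (adjusted p = 0.0169) and lower ones at -1.63 ± 0.15 and -1.39 ± 0.04. Chd7, a chromatin remodeller that works with SOX10 in mice, had a lower set at -1.33 ± 0.04 (adjusted p = 6.89e-05). Its other sets stood at -0.11 ± 0.44 and -0.69 ± 0.74 and did not pass. Whether the lower sets of Nfib, Klf9 and Chd7 detected their transcripts was not tested. Nkx6-2 stood at -0.17 ± 0.14 and the Myt1 sets at 0.33 ± 0.24 and 0.03 ± 0.14, none past the test.

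Of 13 genes of the Wnt output in which TCF7L2 acts, 2 had higher and 2 lower calls only, beside 7.70% and 36.1% of all named genes, and the median was 0.02 over 22 probe sets. Axin2, a general Wnt target, had ratios of 2.499, 2.05, 1.878 and 1.094 in replicates 1 to 4, all above 1 (mean log2 ratio 0.85 ± 0.51, SD, n = 4, limma adjusted p = 0.0228). The co-repressor gene Tle2 stood at 1.0 ± 0.33 (adjusted p = 0.00341) and Axin1 at -0.26 ± 0.08 (0.0289). One of 4 sets of Ctnnb1, the beta-catenin gene, was lower at -1.66 ± 0.07 (adjusted p = 9.73e-05), and the other 3 ran from -0.38 to 0.04. The TCF7L2 relatives Lef1, at -0.07 ± 0.49 and 0.22 ± 0.52, and Tcf7, at 0.27 ± 0.49, did not pass.

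Of 17 genes that the lineage factors act on in oligodendrocytes, 7 had lower calls only and 1, Pdgfra, a higher call (24 probe sets, median -0.05). Both counts lie near the shares of all named genes, 36.1% with lower and 7.70% with higher calls only. The lowest were Aspa, the aspartoacylase gene, at -1.48 ± 0.29 (SD, n = 4, limma adjusted p = 0.000547), Cldn11, a tight junction gene of myelin, at -1.41 ± 0.05 (0.000102), and the connexin gene Gjb1 at -1.39 ± 0.08 (0.000117). The other Cldn11 set stood at 0.16 ± 0.15 and did not pass. The myelin basic protein gene Mbp had 3 probe sets at 0.08 ± 0.13, -0.04 ± 0.09 and -0.07 ± 0.35, none past the test. The lower genes Aspa, Cldn11, Ugt8, Mal and Opalin are the same as those of the myelinating marker list, and Pdgfra is also a precursor marker. Their calls are thus counted in both places. Whether the lower sets detected their transcripts was not tested.

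Immature neuron genes, some of which are known targets of SOX4 and SOX11, had more higher than lower calls. Of 13 genes 5 had higher calls only, 1 a lower call only and 1 both (20 probe sets, median 0.28), beside 7.70%, 36.1% and 1.52% of all named genes. Stmn2, Dcx, Elavl4 and Tubb3 also belong to the neuronal marker list, so their calls are counted in both lists. Elavl4, a neuronal RNA-binding protein gene, stood at 1.81 ± 0.68 (SD, n = 4, limma adjusted p = 0.00396), Dpysl5, a gene of growing neurites, at 1.17 ± 0.07 (0.000148), and Stmn2, a microtubule regulator of axons, at 1.13 ± 0.44 (0.00521). Doublecortin (Dcx), a protein of migrating neurons, was higher on one set, with ratios of 2.056, 1.241, 1.589 and 1.294 in replicates 1 to 4 (0.60 ± 0.33, adjusted p = 0.0215). The other Dcx set stood at -0.04 ± 0.08 and did not pass (adjusted p = 0.675). The lower sets were of Dpysl3, at -0.97 ± 0.04 (adjusted p = 0.000125), and Tubb3, at -0.44 ± 0.06 (0.00413), which also had a higher set. The other Dpysl3 set stood at 0.17 ± 0.69 and did not pass. Whether the Sox11 signal came from neurons or from lineage cells was not tested.

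**Figure D4:**
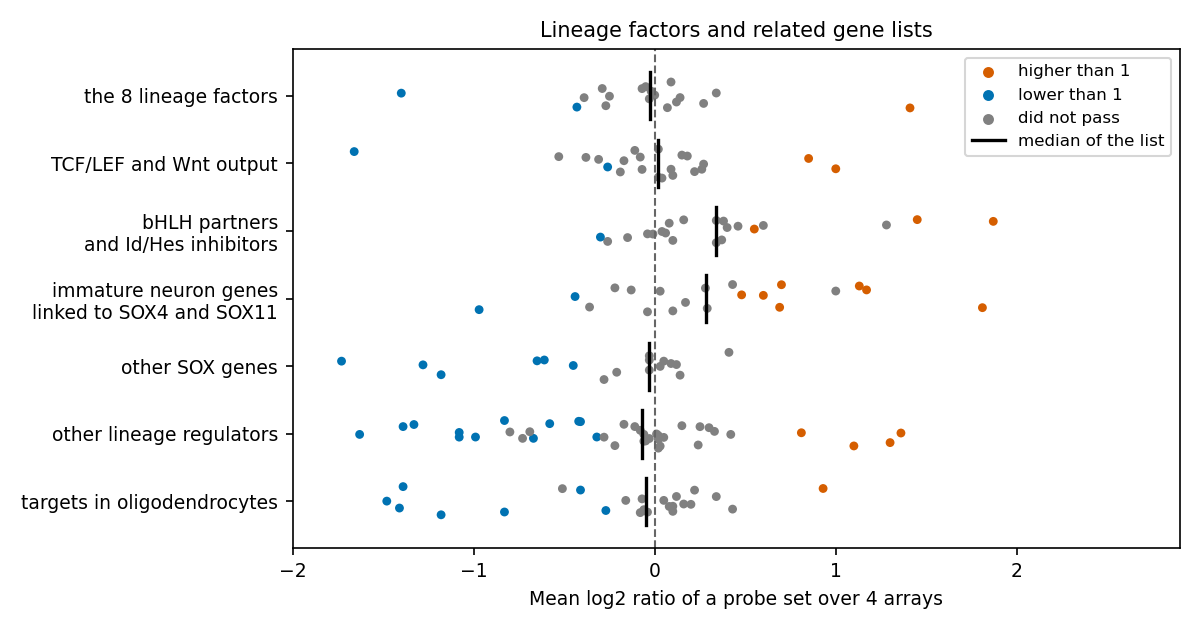
Mean log2 ratio of each probe set over 4 arrays, for the 8 lineage factors (top) and 6 related gene lists. Points are probe sets, coloured by the limma call against a ratio of 1, and black bars are list medians. The median of the bHLH list is 0.34 and that of the immature neuron list 0.28, while other SOX genes have 0 higher calls.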

How the data were processed

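Total RNA of 4 biological replicates was labelled with biotin and read on 2 Affymetrix array types, per the labels' protocols. Per the submitters' processing notes, RMA was the authors' tool (its version is not stated), and they deposited linear ratios to a reference that no label names. That these are ratios and not RMA's log2 signals was read from the values. Control probe sets, 57 on each type, were left out. Among those tested, 12783 (chip A) and 7564 (chip B) had 1 gene symbol in the platform annotation, and gene names come from these only. Of their gene IDs, 12748 and 7524 were found in the RefSeq gene table for GRCr8, with 0 symbols changed.

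Log2 ratios were fitted with limma 3.58.1 in R 4.3.3 (an intercept, eBayes), two-sided against a ratio of 1 and one-sided above the panel level, p-values being adjusted per array type by Benjamini-Hochberg with a threshold of 0.05, and the procedure was tested on simulated data. The panel held 44 chip A probe sets. It held 0 of chip B, whose level was carried over from the same-numbered chip A array by the median difference over shared probe sets, controls included. Alternatives were centring, quantile normalization, a trended robust prior, a filter on ratios under 0.1, a pseudocount of 0.1, each replicate left out, adjustment over both types, and the panel's highest value.

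The members and gene lists were chosen with earlier results of these data known. Named were every member probe set and, of each list, up to 3 higher and 3 lower probe sets past the test with all 4 arrays on 1 side of 1, plus genes set beforehand; genes of that set without a single-gene probe set were not analysed here. Same-numbered arrays of both types deviated together (r from 0.74 to 0.82), so the numbers link the types, but no test compares them.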

Additional observations from a re-analysis of the deposited data

Results flagged for a closer look

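Of 18 member probe sets, 2 had 1 array set apart from the other 3 by the usual gap test, which chance gives in about 5% of such groups. Both belong to Olig2 on chip B and both stand apart in replicate 1, the array with the lowest median ratio of that type (0.888). The ratio there was 0.656 for 1379593_at, against 0.759 to 0.782 on the other arrays. It was 0.947 for 1398212_at, against 0.988 to 0.993. The flag of 1379593_at was reached on the log2 scale only, close to the critical value of 0.829. Without replicate 1 the first set stayed below the reference at a mean log2 ratio of -0.38 (limma adjusted p = 0.0117).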

How the results depend on the processing

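The calls of Sox11, of the Sox4 set 1375257_at and of the Olig2 set 1379593_at against a ratio of 1 kept direction and side of the threshold under all 10 alternatives run for them, with limma adjusted p from 0.000356 to 0.00488, from 1.79e-06 to 0.00181 and from 0.00449 to 0.0294. The count of higher members, 1 in all, was 2 with centring and 2 with quantile normalization, through the Sox4 set 1373860_at, and 1 to 2 with a replicate left out (2 without replicate 3). Of 180 recomputed member means, 16 took the other sign, each uncalled in the main and the alternative setting. The panel level was less stable. Of 522 probe sets above it on chip A and 653 on chip B, 144 and 5 were left with the panel's highest value, 78 on chip B with the trended robust prior, and 2 to 719 and 49 to 810 with a replicate left out. The lowest counts came without replicate 4, and chip B had 319 without replicate 1. The member count of 1 became 0 with the highest value, and 0 to 1 with a replicate left out (0 without replicate 4). The cause was not tested. No paired analysis was possible because the groups that share replicate numbers are array types, whose probe sets differ and which no test compares. With 4 arrays a type and no signal over background in the values, low expression cannot be told from none.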
